A study of Mus musculus with 8 samples.

Results

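The genes described are the integrin subunits, the laminin chains and the nidogens in whole lungs of C57BL/6 mouse fetuses at E18.5. They were taken by symbol, as protein-coding genes named Itga or Itgb, Lama, Lamb or Lamc, or Nid1 or Nid2, which gave 41 of the 55385 gene IDs in the count files. Of these, 27 are integrin subunits (18 alpha and 9 beta), 11 are laminin chains and 2 are nidogens. The last is Itgb1bp2 (melusin), a striated muscle protein that binds the tail of integrin beta1. It is no integrin subunit, but its symbol met the rule and it was kept as a member. In the tracheal occlusion (TO) group, the trachea of the fetus had been tied off at E16.5 through the wall of the uterus, together with a carotid artery and a jugular vein, and the dam received progesterone at E17.5. The control group consists of lungs of the same strain and age, and the labels do not say whether those fetuses had surgery. The comparison asks how the lung's mRNA differs after its fluid has been held in. Of the 8 libraries deposited, 4 control and 4 TO, controls 1, 2 and 4 and TO 2, 3 and 4 are those whose specimens the study displayed, and these 6 (n = 3 per group) were tested. Control 3 and TO 1 were added in second analyses.

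Laminins are proteins made of an alpha, a beta and a gamma chain. Many are cross-shaped and polymerize into a sheet within the basement membrane. Nidogens join that sheet to the collagen IV network. Integrins are pairs of an alpha and a beta subunit that span the cell membrane and tie the matrix outside to the cytoskeleton inside, which makes them sensors of mechanical load. In the developing lung, laminins with the alpha5 chain underlie the branching epithelium, and integrins alpha3 beta1 and alpha6 beta4 are the receptors by which epithelial cells hold on to laminin. A separate group, the beta2 integrins, is found on leukocytes.

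The 7 libraries other than TO 1 held 22822261 to 35002061 read pairs on genes, and TO 1 held 270078, so that 1 read pair is worth 3.70 counts per 1000000 (CPM) there before scaling. Each specimen name ends in digits whose meaning the labels do not give. Code 3482 is shared by controls 1 and 4 and TO 1 and 4, code 3573 by control 2 and TO 2, and code 3604 by control 3 and TO 3. The lung label was met by the epithelial markers, since Sftpc, which encodes surfactant protein C, was at 4437 to 12788 CPM in every library. TO 1 stood apart, with a summed level of 479 CPM for the 9 thymocyte markers against 2.08 to 23.3 CPM in the other libraries and 2555 CPM for the 8 skeletal muscle markers against 20.04 to 299 CPM. The 10 cell cycle markers summed to 492 CPM in control 3 and 518 CPM in TO 3, against 1042 to 1879 CPM in the rest. A bulk library cannot tell fewer cells of a type from less RNA per cell.

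Expression per length was compared in the 3 controls as CPM per kilobase of exon that no other gene shares. The highest level was that of Itgb1, the beta subunit common to most matrix receptors, at 236 ± 17.3 (SD, n = 3). Lamc1 followed at 152 ± 15.03, Lama5 at 108 ± 11.0, Nid1 at 85.6 ± 7.50, Lamb1 at 67.3 ± 3.20 and Lamb2 at 59.8 ± 5.73. These are the chains of laminins that contain alpha5, with the nidogen that links them, and no leukocyte integrin was among them. Lama3 was at 46.5 ± 2.96. Itga6 at 38.9 ± 2.93 was the highest alpha subunit. Next were Lama4 at 37.2 ± 3.20, Nid2 at 37.1 ± 5.84, Itga3 at 29.8 ± 1.93, Itgb5 at 27.6 ± 4.39, Lamb3 at 27.3 ± 3.53, Itga5 at 24.9 ± 1.49 and Itga9 at 24.7 ± 0.653. In this stretch of the order each gene overlapped its neighbour. At the low end were Itgae at 0.489 ± 0.0615, Itgax at 0.110 ± 0.102 and Itgad, which had read pairs in control 2 only and was the 1 member that did not pass the filter of 5 reads in 3 libraries. Of the 40 pairs of neighbours in the order, 29 overlapped in their control libraries and 11 did not.

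**Figure D1:**
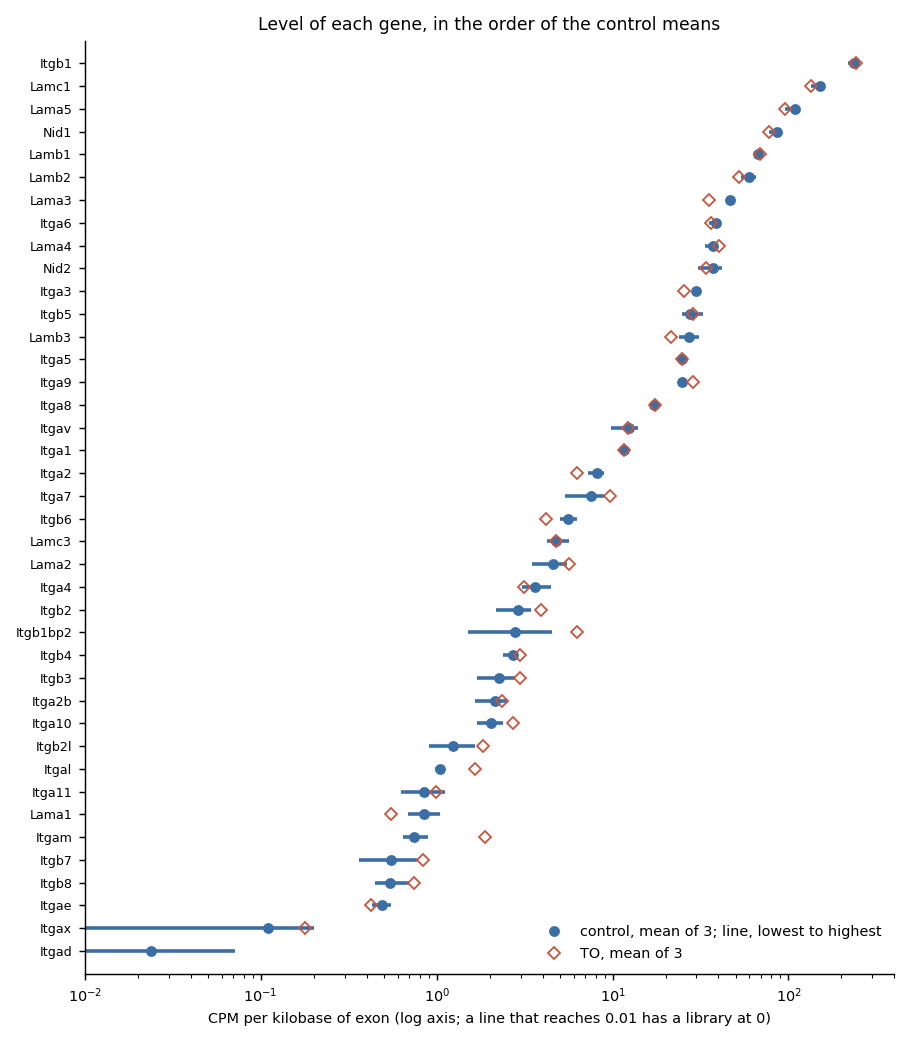
Level of 40 of the 41 genes as CPM per kilobase of exon, on a log axis, with the mean of controls 1, 2 and 4 (filled circles), their lowest and highest values (lines) and the mean of TO 2, 3 and 4 (open diamonds). Itgb1 at 236 and Lamc1 at 152 head the order of control means, and Itgad, whose 3 TO libraries are at 0 and so have no diamond, ends it.

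Within the laminin families, Lama5 made up 54.7 ± 2.62% of the summed alpha chain level in the controls and 53.5 ± 5.93% in the TO lungs (SD, n = 3). Lama3 made up 23.6 ± 1.45% and 20.2 ± 4.31%, and Lama4 18.9 ± 2.17% and 22.8 ± 1.30%. Lamc1 held 74.4 ± 2.47% of the gamma chains in the controls and 75.4 ± 4.92% in the TO lungs. Itgb1 accounted for 84.5 ± 1.29% of all beta subunit level in the controls and 84.0 ± 1.13% in the TO lungs, and the next, Itgb5, for 9.85 ± 1.33% and 9.95 ± 0.680%. The make-up of these families by share thus lay within the spread between lungs for the gamma chains and for the leading beta subunits.

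With the 6 libraries, edgeR called none of the 40 tested members at an adjusted p under 0.1, the lowest adjusted p being 0.907, and it called 0% of the 21859 genes tested. DESeq2 called 0.201% of all genes and no member, with a lowest adjusted p of 0.334 for Itgal. At an unadjusted p under 0.05, edgeR had 3 members higher in TO (Itgal, Itgam and Itgb1bp2), 7.5% of the 40, beside 3.07% of all genes. It had 1 member lower in TO (Lama3), 2.5%, beside 2.07% of all genes. Every TO lung was above every control for 4 members (Itgal, Itgb2, Itgb1bp2 and Lama4), 10% of the members beside 5.1% of all genes. Every TO lung was below every control for 1 member (Lama3), 2.5% beside 5.82% of all genes. The median log2 fold change over the 40 members was 0.03, beside a median of all genes tested of -0.00449, and 23 members were on the higher side and 17 on the lower.

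**Figure D2:**
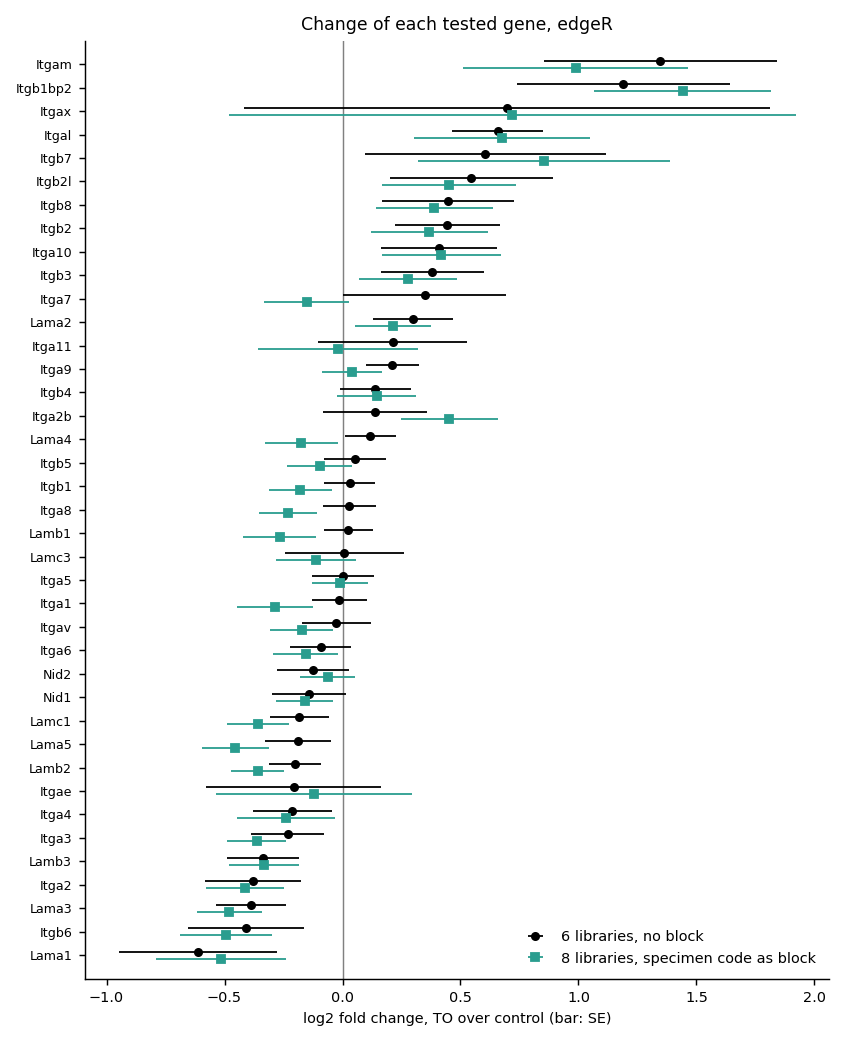
Log2 fold change of TO over control with its SE (bars) for 39 of the 40 tested genes, from the 6 libraries without a block (black circles) and from all 8 libraries with specimen code as a block (green squares). Itgam at 1.35 and Itgb1bp2 at 1.19 lie farthest to the right with 6 libraries and Lama1 at -0.61 farthest to the left, and no adjusted p is under 0.1 in either fit.

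The alpha3 and beta3 chains belong to a laminin to which epithelial cells anchor through integrin alpha6 beta4, and both were lower in TO on average. Lama3, the alpha3 chain, was at 473, 527 and 472 CPM in controls 1, 2 and 4 and at 387, 301 and 437 CPM in TO 2, 3 and 4. The groups did not overlap, and the libraries left out lay on the same sides, control 3 at 505 CPM and TO 1 at 279 CPM. The log2 fold change was -0.39 (SE 0.15, unadjusted p = 0.0279, edgeR adjusted p = 0.907). Lamb3, the beta3 chain, was at 180.2, 204 and 157 CPM in controls 1, 2 and 4 and at 167, 116 and 145 CPM in TO 2, 3 and 4. Its groups overlapped, with control 3 at 131 CPM below 2 of the TO lungs, and the log2 fold change was -0.34 (SE 0.15, edgeR adjusted p = 0.907). The sum of the 8 lung epithelium markers overlapped between the groups, at 8379 to 14757 CPM in controls 1, 2 and 4 and 7609 to 17184 CPM in TO 2, 3 and 4. Most of that sum was Sftpc, at 5921 to 11014 CPM in these controls and 5632 to 12788 CPM in these TO lungs. Of the 8 markers, 5 were on the higher side and 3 on the lower, among them Nkx2-1 (log2 fold change -0.20, SE 0.16, edgeR adjusted p = 0.912). The part of epithelial content in the levels of Lama3 and Lamb3 was not tested.

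The chains of the alpha5 laminins were the most abundant laminins per length in the controls. Lama5 was at 1088, 1317 and 1291 CPM in controls 1, 2 and 4 and at 961, 1284 and 1007 CPM in TO 2, 3 and 4. TO 3 lay among the controls, and control 3 was above all of them at 1588 CPM with TO 1 below at 617 CPM. The log2 fold change was -0.19 (SE 0.14, edgeR adjusted p = 0.910). Lamb2, the beta2 chain, was at 328, 398 and 364 CPM in the 3 controls and at 305, 335 and 309 CPM in the 3 TO lungs, with a log2 fold change of -0.20 (SE 0.11, edgeR adjusted p = 0.907). Only TO 3 reached the control range, and with all 8 libraries TO 1 at 252 CPM and control 3 at 470 CPM extended both groups outward. Lamc1, the gamma chain of nearly every laminin, was at 1319, 1111 and 1333 CPM in the 3 controls and at 1032, 1082 and 1203 CPM in the 3 TO lungs (log2 fold change -0.18, SE 0.12, edgeR adjusted p = 0.909). TO 4 lay above control 2, and the remaining TO lungs lay below all controls. Lamb1, the beta1 chain, was at 657, 642 and 703 CPM in the 3 controls and at 695, 647 and 696 CPM in the 3 TO lungs, a log2 fold change of 0.02 (SE 0.10, edgeR adjusted p = 0.985). The groups could hardly be told apart, but control 3 stood far above them at 1102 CPM and TO 1 below at 462 CPM, and with all 8 libraries the log2 fold change was -0.30 (SE 0.20).

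**Figure D3:**
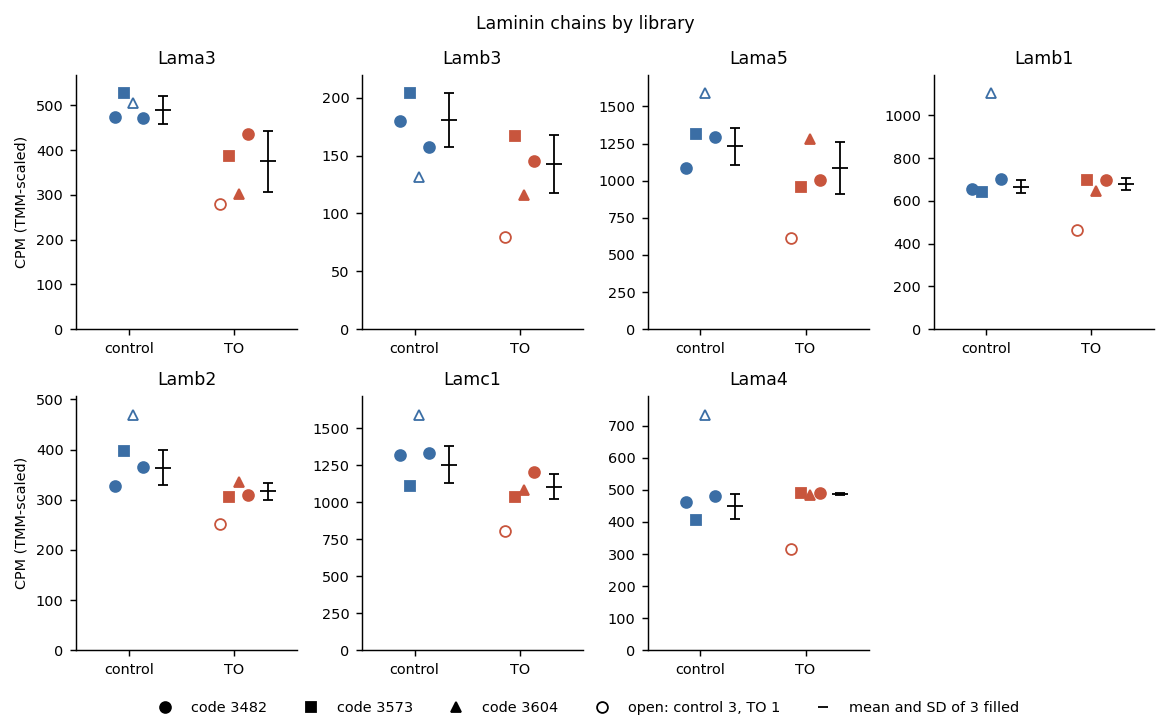
CPM of 7 laminin chains in each library, control in blue and TO in red, with the marker shape giving the specimen code. Filled markers are the 6 libraries tested, with their mean and SD beside them (n = 3), and open markers are control 3 and TO 1. In the Lama3 panel all 4 TO values (279 to 437 CPM) lie below all 4 control values (472 to 527 CPM), and in the other 6 panels the 4 and 4 values overlap.

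The remaining laminins include the alpha4 chain of vessel walls and chains at low level. Lama4 was at 462, 405 and 479 CPM in controls 1, 2 and 4 and at 489, 485 and 489 CPM in TO 2, 3 and 4, so that the TO lungs were all higher, by a log2 fold change of 0.12 (SE 0.11, edgeR adjusted p = 0.931). Control 3 at 735 CPM was above all TO lungs and TO 1 at 317 CPM was below all controls, and with all 8 libraries the log2 fold change had the other sign, -0.21 (SE 0.20). Lama2, the alpha2 chain known from muscle basement membranes, was at 54.9 to 86.3 CPM in the 3 controls and 79.6 to 93.3 CPM in the 3 TO lungs. Lama1, the alpha1 chain of the early embryo, had the most negative log2 fold change among the members, -0.61 (SE 0.34, edgeR adjusted p = 0.907), at 6.70 to 10.2 CPM in controls 1, 2 and 4 and 3.10 to 7.21 CPM in TO 2, 3 and 4. Lamc3, the gamma3 chain, was at 24.1 to 32.3 CPM and 19.2 to 38.5 CPM. Among the 11 laminins, 7 were lower in TO and 4 higher, with a median log2 fold change of -0.19, beside the median of all genes of -0.00449.

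Nid1 and Nid2, the nidogens, had log2 fold changes of -0.14 (SE 0.16, edgeR adjusted p = 0.940) and -0.12 (SE 0.15, edgeR adjusted p = 0.954). Nid1 was at 624, 525 and 597 CPM in controls 1, 2 and 4 and at 564, 414 and 604 CPM in TO 2, 3 and 4. TO 3 was the lowest lung, and the other TO lungs lay within the control range. Nid2 was at 198, 145 and 184 CPM in the 3 controls and at 168, 137 and 178 CPM in the 3 TO lungs, again with the TO lungs other than TO 3 inside the control range.

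Among the 6 libraries tested, code 3604 was held by TO 3 and by no control. A difference between codes thus cannot be told apart fully from one between the groups. Each TO lung was therefore also set against the control of its own code. In code 3482 this is TO 4 against the mean of controls 1 and 4, and in the other codes 1 lung against 1. The libraries are those of the comparison above with control 3 added, so the values are no separate evidence. TO was below control in each of the 3 codes for 9 members, 22.5% of the 40, beside 11.5% of all genes. Among them are the laminins Lama1, Lama3, Lama5, Lamb2, Lamb3 and Lamc1 and the integrin subunits Itga2 and Itgb6. For Lama5 the log2 differences were -0.24 in code 3482, -0.46 in code 3573 and -0.31 in code 3604. For Lamb2 they were -0.16, -0.38 and -0.49 in the same order, and for Lama3 -0.11, -0.44 and -0.75. Lamb3 had the most even differences of these, at -0.21, -0.29 and -0.18. TO was above control in each code for 7 members, 17.5%, beside 12.6% of all genes, namely Itga2b, Itga9, Itga10, Itgam, Itgb2l, Itgb8 and Itgb1bp2. None of these is a laminin. When TO 1 was averaged with TO 4 in code 3482, the 2 counts were 9 and 5.

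**Figure D4:**
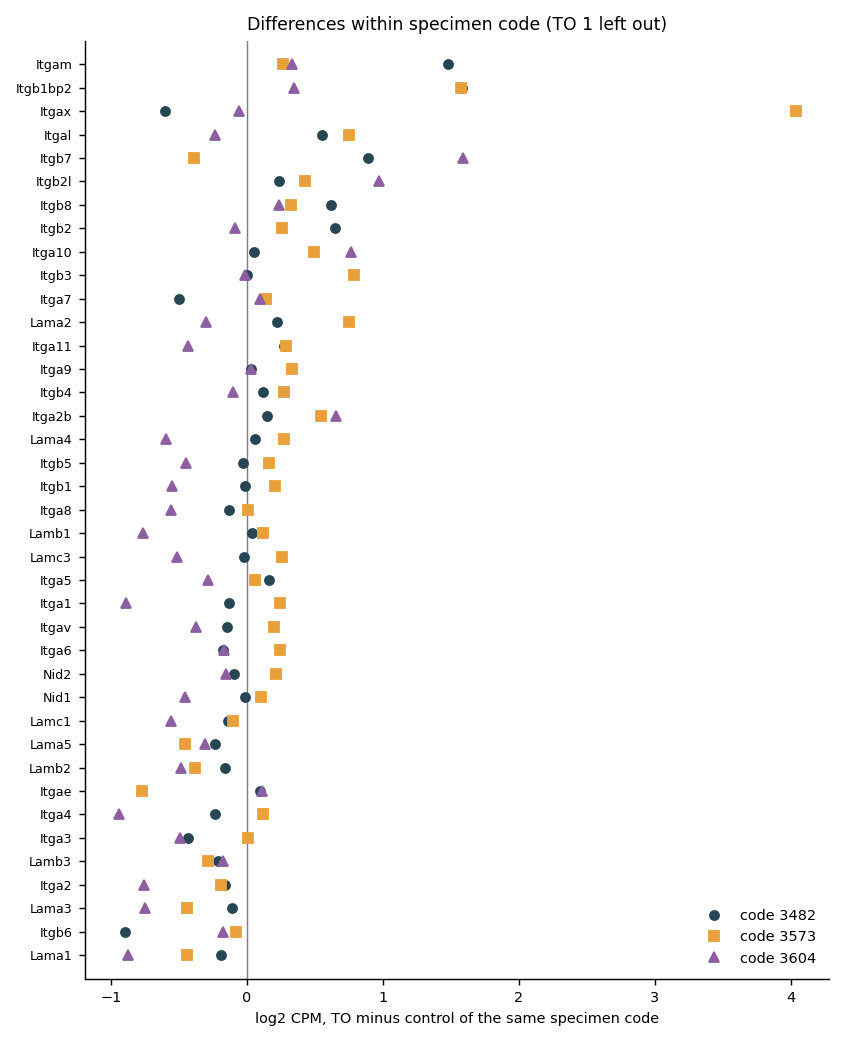
Difference of log2 CPM between TO and control of the same specimen code for 39 of the 40 tested genes, in code 3482 (circles, TO 4 against controls 1 and 4), code 3573 (squares, TO 2 against control 2) and code 3604 (triangles, TO 3 against control 3). The 6 laminins named in the text have all 3 marks left of 0, and code 3604 gives the most negative value for many genes, such as -0.89 for Itga1 and -0.77 for Lamb1.

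A fit of all 8 libraries by edgeR with specimen code as a block gave an unadjusted p under 0.05 and a lower level in TO for 9 members, 22.5%, beside 2.03% of all genes. Lama3, Lama5, Lamb2, Lamb3 and Lamc1 were among them, with Itga2, Itga3 and Itgb6. The log2 fold changes of these 5 laminins in that fit were between -0.48 and -0.33, as for Lama5 (-0.45, SE 0.14, unadjusted p = 0.00668, edgeR adjusted p = 0.848). Lama3 had -0.48 (SE 0.14, unadjusted p = 0.00417, edgeR adjusted p = 0.808). None passed the adjusted threshold. Itga2b and Itgb1bp2 were higher in TO at an unadjusted p under 0.05, 5% of the members beside 3.08% of all genes. Without TO 1, the same fit had 8 members lower in TO, 20%, beside 1.77% of all genes, with Lamb3 no longer among them (unadjusted p = 0.0531), and 1 member higher (Itgb1bp2), 2.5%, beside 2.59% of all genes. Both of these fits include control 3, the highest control for Lama5 (1588 CPM), Lamb2 (470 CPM) and Lamc1 (1592 CPM), though not for Lama3 or Lamb3. In the 6 libraries without a block, 1 member was lower in TO at that threshold, 2.5% beside 2.07% of all genes. The chains of a laminin are assembled together and their mRNAs share these lungs, so the members are not independent of each other.

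Sequences before the start sites are shown for Lama5, Lamb3 and Itga2, because these were lower in TO within each specimen code and their windows hold no annotated exon beyond the base next to the start. They are the 250 bases before the start given by RefSeq on GRCm38.p6, 5′ to 3′ on the strand of the gene, and 25 of the 41 members have such a window there. The letters GGGCGG, the core of an SP1 site, GGAATG, the core of a TEAD site, and TGANTCA, an AP-1 site, were searched on both strands. Capitals mark matches. Lama5 lies on the minus strand at chr2:180225860-180226109, Lamb3 on the plus strand at chr1:193301744-193301993 and Itga2 on the minus strand at chr13:114932101-114932350.
Lama5: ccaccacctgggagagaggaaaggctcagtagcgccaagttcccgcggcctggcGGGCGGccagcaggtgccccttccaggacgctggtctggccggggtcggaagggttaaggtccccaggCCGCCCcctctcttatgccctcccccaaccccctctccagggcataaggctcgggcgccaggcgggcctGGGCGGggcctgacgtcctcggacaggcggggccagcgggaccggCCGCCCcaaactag
Lamb3: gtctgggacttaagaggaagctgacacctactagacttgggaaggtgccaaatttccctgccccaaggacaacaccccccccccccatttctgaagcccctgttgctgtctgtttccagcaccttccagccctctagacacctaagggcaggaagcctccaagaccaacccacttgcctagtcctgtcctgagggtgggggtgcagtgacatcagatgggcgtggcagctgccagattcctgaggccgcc
Itga2: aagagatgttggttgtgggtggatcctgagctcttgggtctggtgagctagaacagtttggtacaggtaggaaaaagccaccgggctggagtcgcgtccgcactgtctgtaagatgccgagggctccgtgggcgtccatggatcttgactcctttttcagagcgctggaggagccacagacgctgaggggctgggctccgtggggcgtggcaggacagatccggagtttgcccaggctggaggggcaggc
The Lama5 window holds 4 matches to GGGCGG and none to the other letters, and it has 72.4% G and C. The windows shown of Lamb3 and Itga2 hold none of the 3. RefSeq gives Lamb3 a second start, whose window at chr1:193301993-193302242 holds 1 match to GGAATG and is not shown because it covers an annotated exon. Of the 32851 windows of this length in the table, 32.7% hold GGGCGG, 12.6% hold GGAATG and 6.75% hold TGANTCA. Among the 28 windows of members, 10 hold GGGCGG, 4 hold GGAATG and 1 holds TGANTCA. A match is a description of the letters and not a bound site.

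The laminin receptors among the alpha subunits are Itga3, Itga6 and Itga7. Itga3, which pairs with beta1 on epithelial cells, was at 165, 183 and 163 CPM in controls 1, 2 and 4 and at 183, 130.5 and 121 CPM in TO 2, 3 and 4. TO 2 lay with the controls and the other TO lungs below them, and the log2 fold change was -0.23 (SE 0.16, edgeR adjusted p = 0.909). Itga6, which pairs with beta4 in hemidesmosomes, was at 368, 320.3 and 364 CPM in the 3 controls and at 379, 285 and 324 CPM in the 3 TO lungs, a log2 fold change of -0.09 (SE 0.13, edgeR adjusted p = 0.960). TO 2 was again the highest lung. Itga7, the muscle laminin receptor, varied widely, from 43.7 to 72.3 CPM in the controls and from 39.7 to 121 CPM in the TO lungs. Itgb4, the partner of alpha6 in hemidesmosomes, was at 16.8 to 20.4 CPM in the 3 controls and 20.2 to 21.8 CPM in the 3 TO lungs.

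The collagen receptors are Itga1, Itga2, Itga10 and Itga11. Itga1 was at 224, 199 and 204 CPM in controls 1, 2 and 4 and at 235, 192 and 195 CPM in TO 2, 3 and 4, with a log2 fold change of -0.01 (SE 0.12, edgeR adjusted p = 0.993). The groups covered the same range, while control 3 was at 355 CPM. Itga2 was at 63.9, 59.2 and 51.8 CPM in the 3 controls and at 52.0, 30.9 and 51.5 CPM in the 3 TO lungs, so that TO 3 alone was well below the rest (log2 fold change -0.38, SE 0.20, edgeR adjusted p = 0.907). Itga10, a cartilage collagen receptor, was at 5.82 to 8.19 CPM and 7.15 to 11.0 CPM, and 33.5% of its exon bases are shared with another gene model, where reads went uncounted. Itga11, found on fibroblasts, was at 3.21 to 5.73 CPM and 3.94 to 5.90 CPM.

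The 4 alpha subunits that bind fibronectin and other ligands with an RGD motif had log2 fold changes of -0.03 to 0.14 in the 6 libraries. Itga5, the classical fibronectin receptor, was at 121, 117 and 131 CPM in controls 1, 2 and 4 and at 122, 106 and 141 CPM in TO 2, 3 and 4, a log2 fold change of 0.000988 (SE 0.13, edgeR adjusted p = 0.999). The TO lungs lay on both sides of the controls. Itga8, an integrin of lung mesenchyme, was at 123, 117 and 119.9 CPM in the 3 controls and at 118, 139 and 111 CPM in the 3 TO lungs (log2 fold change 0.03, SE 0.11, edgeR adjusted p = 0.983), but at 205 CPM in control 3, and with all 8 libraries the value was -0.25 (SE 0.20). Itgav, the alpha subunit of the integrins that activate TGF-beta, was at 99.5 to 141 CPM in the controls and 114 to 131 CPM in the TO lungs. Itga2b, the platelet subunit, was at 8.995 to 14.0 CPM and 11.0 to 14.4 CPM. The 8 platelet markers summed to 68.1 to 112 CPM in the 3 controls and 107 to 136 CPM in the 3 TO lungs. Most of that sum was Vwf, at 73.3 ± 26.0 CPM in the controls and 102 ± 13.0 CPM in the TO lungs (SD, n = 3). Of the 7 markers tested, 5 were on the higher side and 2 on the lower, Gp5 and Treml1. Gp5 was at 1.37 to 1.84 CPM in the controls and 0.852 to 1.24 CPM in the TO lungs, without overlap. Gp1bb was at 0 in all 6. The part of platelets in the level of Itga2b was not tested.

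Itga9 and Itga4 share osteopontin and VCAM1 as ligands. Itga9 was at 190.1, 195 and 185 CPM in controls 1, 2 and 4 and at 246, 224 and 192 CPM in TO 2, 3 and 4, a log2 fold change of 0.21 (SE 0.11, edgeR adjusted p = 0.907). TO 4 lay among the controls and the other 2 TO lungs above them. Itga4 was at 57.6, 39.4 and 42.6 CPM in the 3 controls and at 42.8, 35.5 and 42.2 CPM in the 3 TO lungs (log2 fold change -0.21, SE 0.17, edgeR adjusted p = 0.914).

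Among the beta subunits of tissue cells, Itgb1 was at 1024, 887 and 984 CPM in controls 1, 2 and 4 and at 1023, 945 and 992 CPM in TO 2, 3 and 4. The groups covered the same range, with a log2 fold change of 0.03 (SE 0.11, edgeR adjusted p = 0.982), and control 3 was above all at 1382 CPM and TO 1 below all at 758 CPM, which gave -0.20 with all 8 libraries. Itgb5, a partner of alpha v, was at 89.8, 88.1 and 116 CPM in the 3 controls and at 98.5, 106 and 100.1 CPM in the 3 TO lungs (log2 fold change 0.05, SE 0.13, edgeR adjusted p = 0.979). Itgb6, the epithelial partner of alpha v that activates TGF-beta, was at 35.9 to 44.7 CPM in the controls and at 42.3, 27.6 and 19.9 CPM in TO 2, 3 and 4, with a log2 fold change of -0.41 (SE 0.25, edgeR adjusted p = 0.907). TO 2 lay inside the control range. Itgb8 was at 4.94 to 7.67 CPM and 6.19 to 9.99 CPM, and Itgb3 at 10.0 to 16.5 CPM and 15.02 to 20.1 CPM. Over the 19 integrin subunits that are not specific to leukocytes, 12 were on the higher side and 7 on the lower, with a median log2 fold change of 0.03, and none had an unadjusted p under 0.05.

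The integrins of leukocytes were at low levels and higher in TO on average. Itgal, the alpha L subunit of LFA-1, was at 7.27, 6.98 and 6.46 CPM in controls 1, 2 and 4 and at 11.8, 10.9 and 10.1 CPM in TO 2, 3 and 4. The groups did not overlap, and the log2 fold change was 0.66 (SE 0.19, unadjusted p = 0.00768, edgeR adjusted p = 0.907), a 1.58-fold higher level. Control 3 stood with the TO lungs at 12.8 CPM, and TO 1 was at 44.8 CPM from 13 read pairs. Itgb2, the beta2 partner of alpha L and alpha M, was at 10.6, 9.29 and 6.66 CPM in the 3 controls and at 11.1, 11.8 and 13.2 CPM in the 3 TO lungs, again without overlap (log2 fold change 0.44, SE 0.22, edgeR adjusted p = 0.907), though control 3 at 12.5 CPM was within the TO range. Itgam, the alpha M subunit of neutrophils and macrophages, was at 1.01, 1.07 and 1.41 CPM in the 3 controls and at 1.30, 4.17 and 3.46 CPM in the 3 TO lungs. TO 2 lay among the controls and the other 2 TO lungs above them, as did control 3 at 3.29 CPM, and the log2 fold change was 1.35 (SE 0.49, unadjusted p = 0.0230, edgeR adjusted p = 0.907). Of its exon bases, 68.7% are shared with a readthrough gene model on the same strand, so reads there went uncounted and the level is understated in all libraries.

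The other leukocyte subunits did not separate. Itgb2l was at 5.12, 3.90 and 7.14 CPM in controls 1, 2 and 4 and at 5.27, 11.3 and 7.12 CPM in TO 2, 3 and 4, with TO 3 alone above the controls (log2 fold change 0.55, SE 0.35, edgeR adjusted p = 0.907). Itgb7, of gut-homing lymphocytes, was at 1.01 to 2.15 CPM and 1.07 to 3.10 CPM. Itgae was at 1.97 to 2.53 CPM and 1.45 to 2.24 CPM, and Itgax, the dendritic cell subunit, at 0 to 0.968 CPM and 0.483 to 1.22 CPM. Of the 7 tested leukocyte subunits, 6 were on the higher side, with a median log2 fold change of 0.60 beside -0.00449 for all genes. The 6 leukocyte markers were also all on the higher side (3 at an unadjusted p under 0.05) and summed to 59.9 to 78.6 CPM in the 3 controls and 91.5 to 109 CPM in the 3 TO lungs. The 8 macrophage markers, 8 of 8 on the higher side, summed to 236 to 300.02 CPM and 331 to 479 CPM. For them control 3, at 341 CPM, lay within that TO range and TO 1, at 290 CPM, within that control range. For the 6 leukocyte markers control 3, at 76.1 CPM, lay within the control range and TO 1, at 259 CPM, above the TO range. Of the 9 neutrophil markers 7 could be tested and all 7 were on the higher side, with sums of 20.9 to 52.1 CPM and 49.3 to 158 CPM. The early granule genes Mpo and Elane, which were too low to be tested, lay the other way, Mpo at 0 to 1.27 CPM in the 3 controls and 0 to 0.0852 CPM in the 3 TO lungs and Elane at 0 to 1.09 CPM and 0 to 0.124 CPM. The 9 thymocyte markers summed to 2.76 to 5.46 CPM in the 3 controls and to 5.32, 23.3 and 3.80 CPM in TO 2, 3 and 4. Only TO 3 was above these controls. The part of these cells in the levels of the leukocyte integrins was not tested.

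**Figure D5:**
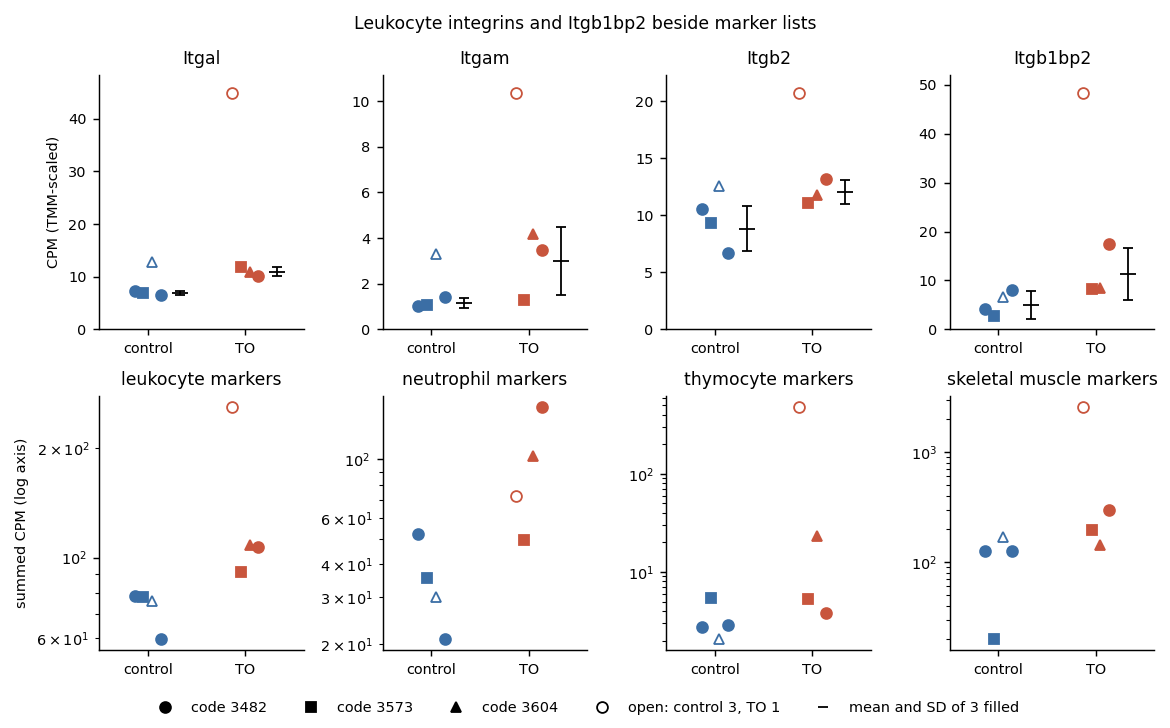
CPM of Itgal, Itgam, Itgb2 and Itgb1bp2 in each library (upper panels, from 0, with the mean and SD of the 3 filled markers) and the summed CPM of 4 marker lists (lower panels, log axes, no mean drawn). TO 1 (open circle) is highest in 7 of the panels, as for Itgal at 44.8 CPM, the thymocyte markers at 479 CPM and the skeletal muscle markers at 2555 CPM.

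Itgb1bp2 was at 4.16, 2.70 and 8.11 CPM in controls 1, 2 and 4 and at 8.16, 8.38 and 17.5 CPM in TO 2, 3 and 4. The groups met at 8.11 and 8.16 CPM without overlapping, control 3 was at 6.59 CPM, and TO 1 was far above at 48.3 CPM from 14 read pairs. The log2 fold change was 1.19 (SE 0.45, unadjusted p = 0.0269, edgeR adjusted p = 0.907). With replicate number as a block in the 6 libraries, where only controls 2 and 4 and TO 2 and 4 share numbers, it was 1.35 and the edgeR adjusted p was 0.0218, which made it the single member called in any fit. That fit called 1% of all genes, where the fit without a block called 0%. Within codes it was higher by 1.58 in code 3482, by 1.57 in code 3573 and by 0.34 in code 3604. The 8 skeletal muscle markers summed to 20.04 to 127 CPM in the 3 controls and 143 to 299 CPM in the 3 TO lungs, also without overlap. Controls 1 and 4 had sums of 126 and 127 CPM, with Itgb1bp2 at 4.16 and 8.11 CPM. The sum in control 3 was 170.2 CPM, of which Ckm alone was 130 CPM. In TO 3 the sum was 143 CPM, with Ckm at 70.2 CPM. Itgb1bp2 in control 3 was below that of every TO lung. Of the 7 skeletal muscle markers tested, all 7 were on the higher side, and only Myod1 had groups without overlap. Myod1 was at 0 to 0.350 CPM in the 3 controls and 0.521 to 1.73 CPM in the 3 TO lungs. It was at 0 in control 3 and TO 1. Tnnc2, too low to be tested, lay the other way, at 0 to 0.195 CPM in the 3 controls and 0 in the 3 TO lungs. The 6 ventricular markers summed to 472 to 1217 CPM and 577 to 2695 CPM. The 6 atrial markers summed to 404, 245 and 2073 CPM in controls 1, 2 and 4 and to 2596 CPM in control 3. In TO 2, 3 and 4 the atrial sums were 1513, 2365 and 1937 CPM. The part of muscle tissue in the level of Itgb1bp2 was not tested.

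Other genes of the pathway were read from lists of ligands and of proteins inside the cell. Of the 28 basement membrane components and integrin ligands, 27 were tested, with 9 on the higher side, 18 on the lower, none called by edgeR or DESeq2 and a median log2 fold change of -0.10. The most abundant were Col4a1 at 2876 ± 178 CPM in the controls and 3161 ± 443 CPM in the TO lungs, Fn1 at 2008 ± 58.5 and 2006 ± 43.1 CPM and Col4a2 at 1449 ± 38.8 and 1558 ± 232 CPM (SD, n = 3). Bcam, a cell surface protein that binds the laminin alpha5 chain, was at 692, 812 and 697 CPM in controls 1, 2 and 4 and at 632, 496 and 584 CPM in TO 2, 3 and 4, without overlap (log2 fold change -0.36, SE 0.13, unadjusted p = 0.0197, edgeR adjusted p = 0.907). It thus lay on the same side as Lama5. Lower by the same measure were Col15a1, a collagen at the outer face of basement membranes, with a log2 fold change of -0.71 (SE 0.26, unadjusted p = 0.0231, edgeR adjusted p = 0.907), and Fras1, an epithelial matrix protein that binds nephronectin, with -0.34 (SE 0.13, unadjusted p = 0.0319, edgeR adjusted p = 0.907). Spp1, osteopontin, was higher by 1.98 (SE 0.86, unadjusted p = 0.0461, edgeR adjusted p = 0.907), at 9.06 CPM in TO 2 and at most 2.81 CPM in the other 5 lungs.

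Of the 32 genes of the integrin adhesion complex, 31 were tested, with 17 on the higher side, 14 on the lower, none called by edgeR or DESeq2 and a median log2 fold change of 0.01. Flna, an actin cross-linker, was at 1476 ± 87.1 CPM in the controls and 1442 ± 59.2 CPM in the TO lungs, Tns1 at 976 ± 83.7 and 1183 ± 213 CPM, and Tln1, the talin that activates integrins, at 641 ± 41.9 and 596 ± 21.2 CPM. Src, a kinase at focal adhesions, was at 134, 157 and 128 CPM in controls 1, 2 and 4 and at 121, 105 and 108 CPM in TO 2, 3 and 4 (log2 fold change -0.33, SE 0.12, unadjusted p = 0.0186, edgeR adjusted p = 0.907). Dst, which encodes several forms of BPAG1, among them the plakin of hemidesmosomes, was higher by 0.34 (SE 0.14, unadjusted p = 0.0381, edgeR adjusted p = 0.907). Counts per gene do not tell these forms apart.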

How the data were processed

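RNA of 4 control and 4 TO mouse lungs was barcoded by the authors with NexteraXT oligos and sequenced from both ends over 150 bp. Alignment by the authors was to GRCm38 with STAR, and they deposited raw counts of read pairs per gene, unnormalized, counted without strand (used here) and for each strand (alternatives). The version of STAR and the annotation are not given in the sources used here. Of 55385 gene IDs, 55144 matched GENCODE M21 without the version, which gave symbols, exons and coordinates, and 39 of the 41 member IDs were identical to it. Read pairs on exons shared by genes of either strand were not counted, so overlapping genes lose reads. The submitters' processing notes also name DESeq2 and mm10.

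The test took in the 21859 genes that had 5 reads or more in at least 3 of the 6 libraries. Library totals were 22822261 to 35002061 read pairs, and 270078 in TO 1, where 3 read pairs correspond to 11.1 CPM before scaling. TO was compared with control in R 4.3.3 by edgeR 4.0.16 (quasi-likelihood test, TMM scaling, no covariate). The p-values of all genes tested were adjusted together by the Benjamini-Hochberg method, and 0.1 was the threshold. DESeq2 1.42.0 and limma 3.58.1 (voom) were alternatives, with other scalings and filters, single-strand counts, more libraries, blocks and each library left out. CPM used TMM factors of all 8 libraries, and log2 CPM a prior count of 2. Scripts were tested on simulated data. Figures were drawn with matplotlib 3.10.9 in Python 3.11.15. Nothing states that the lungs of a group came from separate litters, so p-values measure only the spread between these samples.

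The members and gene lists were chosen with earlier results of these data known. Of the members, 1 is not reported here by itself and stays in the counts, and every other member is named. Values of each library are given for members with an unadjusted p under 0.05, a call by any tool in 6 or 8 libraries, groups that did not overlap, one of the 8 highest control levels, or one of the 2 highest of their role. Those for Lamb3, Itgb6 and part of the others were added after their values were seen. From the pathway lists, the 3 most abundant genes and those with an unadjusted p under 0.05 were named.

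The groups share replicate numbers, and these follow the specimen codes. The correlation of deviations from the group means of same-numbered samples was 0.0518, 0.13, 0.157 and 0.0709 for numbers 1 to 4 in 8 libraries, and 0.125, 0.204 and 0.109 for numbers 2 to 4 without TO 1. Without TO 1, TO 4 correlated more with control 1, of the same specimen code, at 0.168 than with control 4 at 0.109. The pairing by number was therefore not met over all 4 numbers, and without TO 1 it was met for numbers 2 and 3 only. Blocked values are given where they change a call.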

Additional observations from a re-analysis of the deposited data

Results flagged for a closer look

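Within groups of 4 libraries, a library was singled out where its gap to the nearest other, on the log2 CPM scale, took up most of the range of the group (above the 95% critical value of Dixon's ratio). Of 80 groups examined, 6 had such a library, and chance alone singles out about 1 in 20. TO 1, with 270078 read pairs, was the library in 3 of them. Itga11 was at 0 CPM in TO 1 and at 3.94 to 5.90 CPM in the other TO lungs, and 3 read pairs would be 11.1 CPM there before scaling. Itgal was at 44.8 CPM in TO 1 against 10.1 to 11.8 CPM, where the thymocyte markers summed to 479 CPM against 2.08 to 23.3 CPM in the other 7 libraries. Lama4 was at 317 CPM in TO 1 against 485 to 489 CPM. Control 3 was the library in 2 groups, with Itga8 at 205 CPM against 117 to 123 CPM and Lamb1 at 1102 CPM against 642 to 703 CPM in the other controls. The last was Itgax in control 2, at 0 CPM against 0.613 to 0.968 CPM. The part of depth or of other tissue in these values was not tested.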

How the results depend on the processing

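No member passed an adjusted p of 0.1 in any alternative but 1. With replicate number as a block in the 6 libraries, 1 member was called (Itgb1bp2, log2 fold change 1.35, edgeR adjusted p = 0.0218), 219 of all genes and 2 pathway genes, and with that block in 8 libraries no member and 3 genes. These blocks changed no other call on a member. Of all genes, edgeR called none in the 6 libraries (1123 had an unadjusted p under 0.05), 40 without a filter and 1 with a code block without TO 1, and DESeq2 called 44, or 7 in all 8 libraries. With each library left out, calls were 0 to 144 over all genes, the highest without TO 4 and 52 without control 4, and 0 to 2 over the pathway genes. The count of members whose groups did not overlap, 5 in the 6 libraries, was 2 with control 3 added, with or without TO 1, and 8 to 16 with each library left out, where fewer lungs are compared.

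The median log2 fold change of the members, 0.03, was -0.11 in all 8 libraries (DESeq2 -0.11, voom -0.0818) and -0.0845 without TO 1. It was 0.0875 and -0.15 with a replicate block in 6 and 8 libraries, and -0.14 and -0.093 with a code block in 8 libraries and without TO 1. Of 24 members followed, 13 kept their sign in all alternatives, Lama3, Lama5, Lamb2, Lamc1, Itgal, Itgam, Itgb2 and Itgb1bp2 among them. The other 11 had a log2 fold change of at most 0.21 in size. The differences within codes are not among these alternatives. In code 3604, TO 3 was below control 3 for Itgal (log2 difference -0.23) and Itgb2 (-0.0911).

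The sign turned as follows, in log2 fold change. In all 8 libraries, Itga5 had -0.0138, Itga8 -0.25, Itgb1 -0.20, Itgb5 -0.11, Lama4 -0.21 and Lamb1 -0.30, and without TO 1 the same genes had -0.0162, -0.21, -0.12, -0.11, -0.0933 and -0.19. In the same order they had -0.0238, -0.24, -0.19, -0.11, -0.20 and -0.29 with a replicate block in 8 libraries, and -0.0103, -0.23, -0.18, -0.0961, -0.17 and -0.27 with a code block. Without TO 1 the code block gave Itga8 -0.22, Itgb1 -0.11, Itgb5 -0.10, Lama4 -0.0742 and Lamb1 -0.18. With DESeq2 in 8 libraries the 6 genes had -0.00114, -0.24, -0.18, -0.10, -0.20 and -0.29, and with voom -0.0176, -0.18, -0.12, -0.0842, -0.0848 and -0.19, fits that were added after seeing the data. All of these add control 3, which was above the other controls for these genes except Itga5. The replicate block in 6 libraries turned Itga1 to 0.0904, Itga4 to 0.0551, Itga6 to 0.0408, Itga8 to -0.0493, Itgb5 to -0.0225, Nid1 to 0.0617 and Nid2 to 0.088. Counts of a single strand turned Itga5 to -0.00755, Itga1 to 0.025 and Itgb5 to -0.0474, and voom turned Itga5 to -0.00224. With each library left out, the ranges were -0.11 to 0.0534 for Itga1, -0.11 to 0.11 for Itga5, -0.20 to 0.0143 for Itga6, -0.0577 to 0.10 for Itga8, -0.0226 to 0.0788 for Itgb1, -0.0139 to 0.19 for Itgb5 and -0.25 to 0.0166 for Nid1. The cause was not tested. Depth limits TO 1, where genes under about 11.1 CPM are a few read pairs or none.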
